A study of Mus musculus with 7 samples.

Results

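The data described here are the transcript levels of 10 genes of the fibroblast growth factor (FGF) system while mouse embryonic stem cells were taken through a stepwise differentiation. The genes are 6 ligands (Fgf4, Fgf15, Fgf3, Fgf17, Fgf2 and Fgf8) and 4 receptors (Fgfr1, Fgfr2, Fgfr3 and Fgfr4). They were chosen by name from the 30590 rows of the deposited table, with Fgf5 left out, and all 10 were among the 21813 genes tested. Measured values were not used in the rule itself.

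All cells came from 1 line. The labels call it Bry-GFP, which by usage means that GFP sits at the Brachyury gene. Bulk RNA sequencing gave 7 libraries. Day 0 (2 libraries) was the stem cells, which were kept on mouse embryonic feeder cells in medium with 15% fetal bovine serum and LIF at 1000 U/mL. Day 2 (2 libraries) was embryoid bodies, aggregates formed off the feeders during 48 h of suspension without serum and with no factor named. Day 4 (2 libraries) followed 48 h with Noggin, which blocks BMP signalling, at 150 ng/mL, with 25 ng/mL of Wnt3a and 9 ng/mL of Activin A, a mix meant to induce primitive streak. Day 6 (1 library) followed a further 48 h in which those factors were replaced by basic FGF, the FGF2 protein, at 10 ng/mL. The labels give no untreated aggregates of the same age, so time and added factor cannot be told apart. The replicates are called biological, but the labels do not say whether they were separate cultures, so the p-values measure the spread between these libraries.

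FGF ligands are secreted proteins that bind receptor tyrosine kinases together with heparan sulfate chains on the cell surface, and the bound receptors pass the signal mainly through the RAS and ERK kinases. In mouse embryonic stem cells FGF4 is the best known ligand made by the cells themselves, and FGF and ERK signalling is needed for them to leave the naive state. In the gastrulating embryo FGF8 and FGF4 act in the primitive streak, while FGF15, FGF3, FGF17 and FGF8 act in the early neural tube.

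Fgf4 is known for an enhancer in its 3′ untranslated region that is bound by SOX2 and POU5F1 (OCT4), and this site is shown because Fgf4 was the gene of the set that fell between days 2 and 4. In GRCm38 the printed 30 bases lie at chr7:144864388-144864417 on the plus strand, in exon 3 of 3, and the site begins 1456 bases after the end of the coding sequence. Capitals mark the SOX-type letters CTTTGTT and the octamer-type letters ATGCTAAT.
Fgf4 site: aaaactCTTTGTTtggATGCTAATgggata
This arrangement, with 3 bases between the motifs, was found in 1 of 141767 annotated mouse transcripts when the sense strand was searched. Transcripts of the factors that bind it were high on day 0, with Pou5f1 at 11.34 and 11.40 and Sox2 at 9.64 and 9.21, as log2 of 1 plus scaled reads. Pou5f1 was at 11.32 and 10.90 at day 2, 10.46 and 10.64 at day 4 and 7.02 at day 6. Sox2 was at 9.68 and 9.56 at day 2, 9.39 and 9.45 at day 4 and 10.32 at day 6. Pou5f1 was lower in both day 4 libraries than in either day 2 library, and lowest on day 6. The part of these factors in the course of Fgf4 was not tested. Binding was not measured here.

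Fgf3, Fgf4 and Fgf15 lie side by side on the plus strand of chromosome 7, within 62.3 kb in GRCm38. Fgf3 spans chr7:144838612-144843348, Fgf4 spans chr7:144861386-144865245 and Fgf15 spans chr7:144896532-144900953, with gaps of 18.04 and 31.29 kb. The 250 bases before the annotated starts of Fgf3 and Fgf4 are shown because these neighbours followed different courses (RefSeq, GRCm38.p6, plus strand). Capitals mark the GC box GGGCGG, searched on both strands.
Fgf3, chr7:144838362-144838611: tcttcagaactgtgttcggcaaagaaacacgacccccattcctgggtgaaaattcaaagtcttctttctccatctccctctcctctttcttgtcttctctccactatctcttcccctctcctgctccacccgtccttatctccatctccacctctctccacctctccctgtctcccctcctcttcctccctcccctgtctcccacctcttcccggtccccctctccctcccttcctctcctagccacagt
Fgf4, chr7:144861136-144861385: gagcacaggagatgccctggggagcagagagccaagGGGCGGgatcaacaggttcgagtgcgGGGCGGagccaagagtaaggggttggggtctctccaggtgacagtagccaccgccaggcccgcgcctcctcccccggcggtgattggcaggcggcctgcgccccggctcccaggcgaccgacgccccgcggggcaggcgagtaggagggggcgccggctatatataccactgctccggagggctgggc
The Fgf3 window held 55.2% G and C, 4 CpG dinucleotides and 0 GC boxes. The Fgf4 window held 71.2% G and C, 21 CpG dinucleotides and 2 GC boxes. Over 32851 mouse promoters of this length the median was 52.4% G and C, and 32.7% held a GC box. The letters TATAAA (12.4% of promoters), CTTTGTT (5.03%) and ATGCAAAT (1.6%), each searched on both strands, were in neither window. Only these exact letters were searched, so close variants were not counted, such as the run tatatata in the Fgf4 window. Promoter sequence was matched for 6 of the 10 genes. Among the others, the windows of Fgfr3 had 66.8% G and C at its first listed start, of Fgfr4 64.0%, of Fgf2 62.4% and of Fgfr2 44%.

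All levels below are log2 of 1 plus scaled reads, and a change is a difference of such levels, so folds include the added 1 and come out too small for genes of low level. Calls are limma's moderated tests over all genes, adjusted by Benjamini and Hochberg, and called under 0.05. Estimated from the steps between low values, depth was roughly 5040000 to 6620000 reads per library at day 0 and 2870000 to 4500000 in the 5 later libraries. The scale was set by the level taken for 3 reads alone and need not hold at other levels, so depths and rough reads are approximate. A gene with 3 reads would have had a level of 1.44 to 2.30, depending on the library, and differences below that level cannot be read. Of the 10 genes, Fgf3, Fgf8 and Fgf2 were below it in 1 library each and Fgfr3 and Fgfr4 in 3 each. The day 0 label was matched by its markers, since 6 of 6 naive stem cell genes (Zfp42, Klf4, Tbx3, Nr0b1, Esrrb and Tfcp2l1) fell by day 2. All 6 were above 0 in every library, day 6 included, so their presence alone does not mark day 0. The day 4 label was matched less fully: summed primitive streak markers were 6.14 and 7.72 at day 2, 9.64 and 9.35 at day 4 and 8.56 at day 6, with 1 of 7 rising between days 2 and 4, and 3 of 7 were listed at 0 on day 6.

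Between day 0 and day 2, when the aggregates formed, Fgf15 and Fgf3 rose and Fgf17 and Fgf2 fell, while Fgf4, Fgf8 and the receptors did not pass the test. That is 4 of 10 genes, against 12.0% of all genes. By direction it is 2 of 10 higher, against 5.76% of all genes, and 2 of 10 lower, against 6.20%. The median change of the 10 genes was 0.09, against 0.05 for all genes tested.

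Fgf15, the mouse counterpart of human FGF19, which is a hormone of the gut in the adult and a neural tube ligand in the embryo, was at 5.90 and 5.39 at day 0, 7.98 and 8.61 at day 2, 7.82 and 7.88 at day 4 and 7.72 at day 6. The day 0 libraries were low, and the 5 later libraries lay together above both of them. The change from day 0 to day 2 was 2.65 (SE 0.27), a 6.28-fold rise (limma, adjusted p = 0.00291). After day 2 the level did not pass the test again, with changes of -0.44 to day 4 (adjusted p = 0.427) and -0.13 to day 6 (adjusted p = 0.905). With single libraries left out, the rise was 2.33 to 2.97 and passed only without day 2 replicate 1 (adjusted p = 0.0461, against 0.0504 to 0.123 without any other library). An antisense transcript, Gm26793, overlaps Fgf15 over 930 bases and was at 0 and 0 at day 0 and at 1.82 to 2.98 later. No source used here says whether the counting used strand, so reads of this pair cannot be told apart.

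Fgf3, a ligand known from the hindbrain and the inner ear, was at 2.28 and 1.26 at day 0, 5.66 and 5.21 at day 2, 3.98 and 4.44 at day 4 and 3.63 at day 6. Both day 2 libraries were the highest, both day 0 libraries were the lowest, and days 4 and 6 lay between them. The day 0 levels stand for roughly 6.8 and 1.9 reads. The rise from day 0 to day 2 was 3.67 (SE 0.48), or 12.7-fold (adjusted p = 0.00643). With 8 added to the scaled reads in place of 1 it was 4.77-fold (adjusted p = 0.00516). From day 2 to day 4 the change was -1.23 (adjusted p = 0.205), and from day 4 to day 6 it was -0.58 (adjusted p = 0.616). Leaving out any 1 of the 6 replicated libraries gave a rise of 3.15 to 4.18 with an adjusted p of 0.0588 to 0.0925, so the call was lost each time.

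Fgf4, the gene between Fgf3 and Fgf15, had a course of its own: 8.06 and 8.06 at day 0, 8.41 and 8.46 at day 2, 5.83 and 6.73 at day 4 and 4.76 at day 6. It was high in all 4 early libraries, lower in both day 4 libraries and lowest on day 6. The change from day 0 to day 2 was 0.38 (SE 0.29, adjusted p = 0.479). Over the same interval its neighbours on both sides rose.

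**Figure D1:**
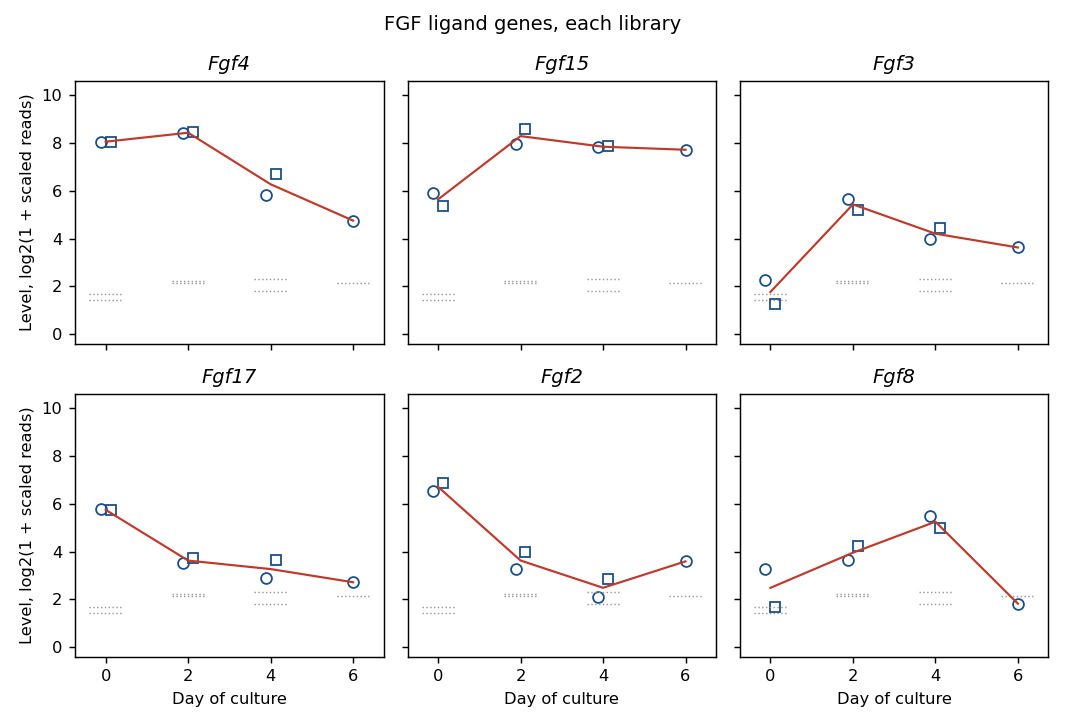
Levels of the 6 FGF ligand genes (vertical axis, log2 of 1 plus scaled reads) by day of culture (horizontal axis). Circles are replicate 1, squares are replicate 2, red lines join the day means and dotted lines mark the level of 3 reads in each library. Fgf15 and Fgf3 were higher on day 2 than on day 0, Fgf17 and Fgf2 were lower, Fgf4 fell after day 2 and Fgf8 was highest on day 4.

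Fgf17, a ligand of the same subfamily as Fgf8, was at 5.78 and 5.73 at day 0, 3.52 and 3.74 at day 2, 2.90 and 3.65 at day 4 and 2.72 at day 6. Only the day 0 libraries were high, and days 2 and 4 overlapped. It fell by 2.13 between days 0 and 2 (SE 0.40, adjusted p = 0.0197), which is 4.36-fold. Later changes were -0.36 (adjusted p = 0.652) and -0.55 (adjusted p = 0.557). The fall was 2.01 to 2.24 with single libraries left out and passed only without day 4 replicate 2 (adjusted p = 0.0483, otherwise 0.0564 to 0.159).

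Fgf2, the gene of basic FGF itself, was at 6.55 and 6.88 at day 0, 3.28 and 3.98 at day 2, 2.10 and 2.87 at day 4 and 3.59 at day 6. The day 0 libraries stood above all others. It fell by 3.09 between days 0 and 2 (SE 0.44, adjusted p = 0.00813), or 8.49-fold. Without any 1 of the 6 replicated libraries the change was -3.44 to -2.74 with an adjusted p of 0.0518 to 0.158, above the threshold each time. When basic FGF protein was present, the transcript was at 3.59, inside the range of the day 2 libraries, and the change from day 4 was 1.11 (SE 0.54, adjusted p = 0.261). The day 2, 4 and 6 levels rest on roughly 2.5 to 11.9 reads. Nudt6, an antisense neighbour that overlaps Fgf2 over 5197 bases, was at 0.51 to 3.22 in the 7 libraries.

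Fibroblast markers moved with the falls of Fgf17 and Fgf2. The summed level of the 10 markers (Col1a1, Col1a2, Col3a1, Acta2, Tagln, Lox, Thy1, Postn, Dcn and Lum) was 14.1 and 14.3 at day 0, 10.3 and 9.75 at day 2, 8.32 and 8.22 at day 4 and 8.61 at day 6. Of the 10, 8 fell between days 0 and 2, with a median change of -4.26, and 1 was listed at 0 in 1 day 4 library and in no other. Fgf7, a ligand known from fibroblasts and other mesenchymal cells, was at 6.68 and 7.66 at day 0 and 0 and 1.09 at day 2 (adjusted p = 0.00253). Whether feeder cells were still present when the day 0 RNA was prepared is not stated in those labels, and the part of feeder RNA in these falls was not tested. The summed level of the neural markers rose from day 0 to day 2, as Fgf15 and Fgf3 did, with 3 of 7 markers rising. At the later steps 4 of 7 neural markers were called higher between days 2 and 4 and 0 of 7 between days 4 and 6. Single markers had different courses: over the 3 steps Olig3 changed by 4.15, -0.51 and -0.40 and Dcx by 2.33, 4.00 and 2.14. The sum of the 7 neural markers was 7.59 and 7.66 at day 0, 9.00 and 8.34 at day 2, 10.8 and 9.66 at day 4 and 11.2 at day 6. The part of neural cells in the rises of Fgf15 and Fgf3 was not tested either. In these bulk samples fewer cells of a type and less RNA per cell cannot be told apart.

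**Figure D2:**
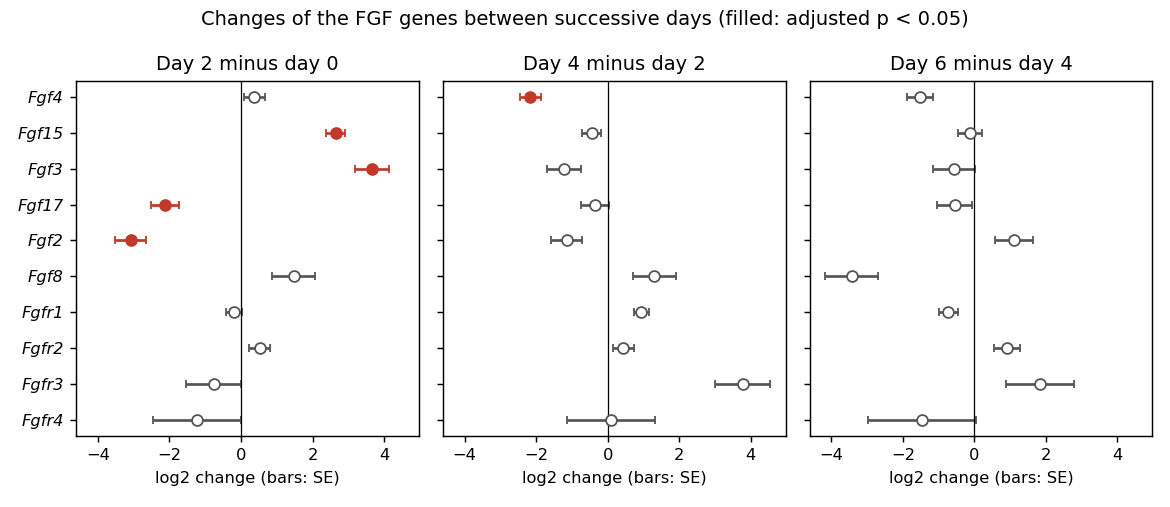
Log2 change of each of the 10 FGF genes between successive days (horizontal axis) from the limma fit, with bars of 1 standard error. Filled red points have an adjusted p under 0.05: Fgf15, Fgf3, Fgf17 and Fgf2 between days 0 and 2, Fgf4 between days 2 and 4, and none between days 4 and 6.

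Between day 2 and day 4, with Noggin, Wnt3a and Activin A present, Fgf4 was the gene among the 10 that passed the test. That is 1 of 10 genes, against 3.59% of all genes, and 1 of 10 lower, against 2.13%. Across all genes 1.45% were called higher, and among the 10 genes none. The median change was -0.13 for the 10 genes and 0 for all genes tested. Fgf4 fell by 2.16 (SE 0.29, adjusted p = 0.0194), a 4.46-fold fall. The call depended on the fit: leaving out any 1 of the 6 replicated libraries gave a change of -2.61 to -1.71 with an adjusted p of 0.12 to 0.189, and a fit without both day 0 libraries gave an adjusted p of 0.0818. Limma without trend or robust moderation gave 0.0761. Fgf4 then went from a day 4 mean of 6.28 ± 0.64 (SD, n = 2) to 4.76 in the day 6 library, a change of -1.52 (SE 0.36, adjusted p = 0.0642). That change passed with genes of low mean level left out (0.0199) and with no other setting tried (0.0642 to 0.264). Naive stem cell markers moved with it after day 2: all 6 fell between days 2 and 4 and 2 of 6 fell between days 4 and 6. All 6 had also fallen between days 0 and 2 (median change -1.57), when Fgf4 changed by 0.38 and was not called. Their part in the change of Fgf4 was not tested.

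Fgf8, a ligand needed for cells to leave the primitive streak, was at 3.27 and 1.71 at day 0, 3.66 and 4.25 at day 2, 5.52 and 4.99 at day 4 and 1.82 at day 6. The day 4 libraries were the highest of the 7, and the day 6 library, at roughly 2.3 reads, was near the lowest. Neither the change of 1.47 from day 0 to day 2 (SE 0.60, adjusted p = 0.179) nor that of 1.30 from day 2 to day 4 (adjusted p = 0.283) passed the test. The change from day 4 to day 6 was -3.43 (SE 0.74, adjusted p = 0.0536), just outside the threshold. It passed when 8 was added to the scaled reads in place of 1 (-2.10, adjusted p = 0.0463) and when genes of low mean level were left out (adjusted p = 0.0174). It did not pass without trend or robust moderation (0.103), with the replicate number in the fit (0.0673), without the day 0 libraries (0.0945) or with any 1 replicated library left out (0.103 to 0.227).

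Between day 4 and day 6, after the switch to basic FGF, none of the 10 genes passed limma's test, against 4.46% of all genes (1.27% higher and 3.18% lower). At an unadjusted p under 0.05 there were 4 of 10, against 25.3% of all genes. Their median change was -0.57, against 0 for all genes tested. Day 6 had 1 library, so its comparison assumes that it varied like the other days.

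Over the whole course, 8 of the 10 genes passed the F test for any change between days, against 28.6% of all genes. All 6 ligands passed (adjusted p = 0.00246 for Fgf4 to 0.031 for Fgf8), as did Fgfr2 and Fgfr3 of the 4 receptors. Without the day 0 libraries, when the F test covers days 2, 4 and 6, 1 of 10 passed (Fgf4). The number also moved when single libraries were left out, and the number over all genes moved in the same fits. Such fits leave another day with 1 library, so their counts are not read as a result about the FGF genes. The fit without trend or robust moderation called 5.

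Among the receptors the changes between successive days did not pass the test, and the courses of Fgfr2 and Fgfr3 over all days did. Fgfr3, known from neural progenitors and growing cartilage, was at 1.04 and 2.37 at day 0, 1.87 and 0 at day 2, 5.05 and 4.37 at day 4 and 6.54 at day 6. All 4 early libraries were low, the day 4 libraries stood clear of them and the day 6 library was the highest. In rough reads this is 0 to 5.6 in the early libraries, 24.5 and 23.5 at day 4 and 81.8 at day 6. The change from day 2 to day 4 was 3.77 (SE 0.77, adjusted p = 0.0541), with a day 2 library listed at 0, and that from day 4 to day 6 was 1.83 (adjusted p = 0.290). With 8 added in place of 1 the change from day 2 to day 4 was 1.85 and passed (adjusted p = 0.0382). It did not pass without trend or robust moderation (0.12), with the replicate number in the fit (0.0744), without the day 0 libraries (0.105) or with any 1 replicated library left out (0.111 to 0.322). The F test over all days gave an adjusted p of 0.0137. That F call was lost without trend or robust moderation, without the day 0 libraries and when any single day 0 or day 4 library was left out.

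Fgfr2, a receptor of epithelia and of the extraembryonic lineages of the early embryo, was at 6.15 and 6.59 at day 0, 7.29 and 6.49 at day 2, 7.39 and 7.27 at day 4 and 8.25 at day 6. Days 0 and 2 overlapped, as did days 2 and 4, and day 6 was the highest library. The steps were 0.52 (adjusted p = 0.338), 0.44 (adjusted p = 0.478) and 0.92 (adjusted p = 0.179), and the F test gave an adjusted p of 0.0349. The F call was lost when the replicate number was added to the fit, without trend or robust moderation and without the day 0 libraries. It was also lost when any single day 0 or day 4 library was left out.

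Fgfr1, the main FGF receptor of the epiblast and of embryonic stem cells, was at 8.90 and 9.07 at day 0, 9.08 and 8.48 at day 2, 9.84 and 9.62 at day 4 and 9.00 at day 6. The day 4 libraries were above the other 5, which overlapped. The change from day 2 to day 4 was 0.95 (SE 0.21, adjusted p = 0.0664) and that from day 4 to day 6 was -0.73 (adjusted p = 0.146). The first of these passed when genes of low mean level were left out of the fit (adjusted p = 0.0191). It did not pass without trend or robust moderation (0.161), without the day 0 libraries (0.147) or with any 1 replicated library left out (0.101 to 0.358). The F test gave an adjusted p of 0.0523.

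Fgfr4, a receptor known from endoderm and liver, was at 2.20 and 2.98 at day 0, 2.73 and 0 at day 2, 0 and 2.94 at day 4 and listed at 0 on day 6. Libraries of the same day differed as much as libraries of different days, and the values rest on at most 9.2 reads. Its F test gave an adjusted p of 0.570, so no course could be read at this depth. Fgfr4 lies at chr13:55152818-55168759, Fgfr3 at chr5:33721724-33737068, Fgfr2 at chr7:130162451-130266808 and Fgfr1 at chr8:25518759-25575718 (GRCm38). The other ligand genes lie at chr19:45736491-45742941 for Fgf8, chr14:70636203-70642268 for Fgf17 and chr3:37348477-37410106 for Fgf2.

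**Figure D3:**
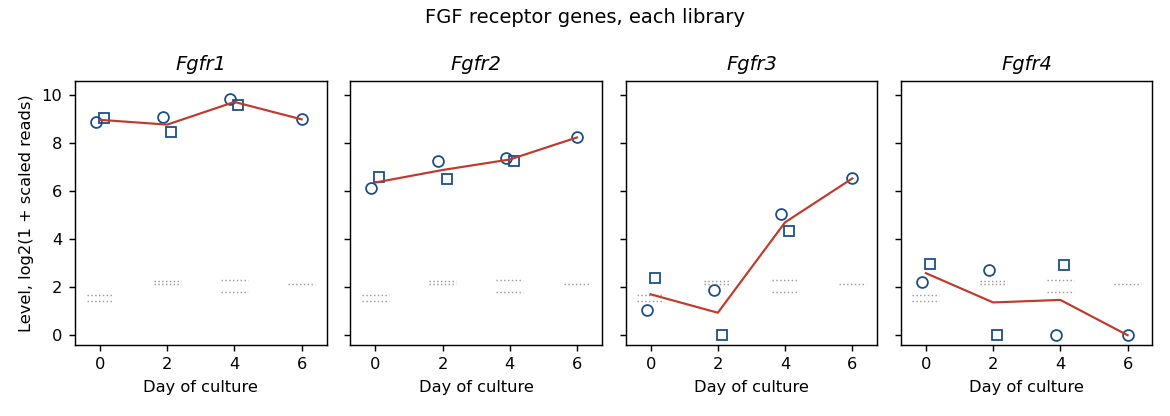
Levels of the 4 FGF receptor genes (vertical axis, log2 of 1 plus scaled reads) by day of culture (horizontal axis). Symbols, red lines and dotted lines are as in the plot of the ligands. Fgfr1 was between 8.48 and 9.84 in every library, Fgfr2 reached 8.25 and Fgfr3 6.54 at day 6, and Fgfr4 was near or below the level of 3 reads.

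To set genes beside each other, scaled reads were divided by the length of the longest annotated coding transcript, which need not be the form these cells make. On day 0 Fgf4 led the 6 ligands with 87.9 and 87.5 scaled reads per kb. Fgf15 (32.5 and 22.6) and Fgf17 (31.9 and 30.8) overlapped in second place, followed by Fgf2 (15.6 and 19.6). Fgf8 (7.40 and 1.94) and Fgf3 (1.68 and 0.604) were last and differed by less than the spread of Fgf8.

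On day 2 Fgf15 had 139 and 215 scaled reads per kb and Fgf4 had 112 and 116, so Fgf15 was above Fgf4 in both libraries, the reverse of day 0. Fgf3 came next with 21.6 and 15.6. On day 4 Fgf15 was at 125 and 129, and Fgf8 (38.3 and 26.4) overlapped with Fgf4 (18.4 and 34.6) behind it. On day 6 Fgf15 was at 116 scaled reads per kb and Fgf4 at 8.59, with the other 4 ligands between 1.86 and 4.95.

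As a share of the summed ligand reads per kb, Fgf4 went from 49.7% and 53.7% at day 0 to 38.6% and 31.2% at day 2, 9.59% and 16.7% at day 4 and 6.27% at day 6. Fgf15 went from 18.4% and 13.8% to 47.9% and 57.8%, then 64.9% and 62.4%, and reached 84.8% at day 6. After day 2 its own scaled reads per kb, given above, did not rise, while those of Fgf4 fell. Ligands outside the 6, such as Fgf7 and Fgf10, are not in the sum. The share of Fgf8 was 19.9% and 12.8% at day 4 and at most 4.18% in any other library. The shares of Fgf4 and of Fgf15 did not overlap between successive days. These shares are descriptions of the 7 libraries and were not tested.

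Among the receptors Fgfr1 was first on every day, with 84.3% and 80.9% of the summed reads per kb on day 0 and 52.5% at day 6. Fgfr2 was second with 14.5% to 24.7% up to day 4 and 36.3% at day 6. Fgfr3 had at most 0.746% up to day 2, 3.32% and 2.34% at day 4 and 11.2% at day 6. Fgfr4 had at most 1.57% in any library. In scaled reads per kb on day 6, Fgfr1 was at 101, Fgfr2 at 70.3 and Fgfr3 at 21.6.

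**Figure D4:**
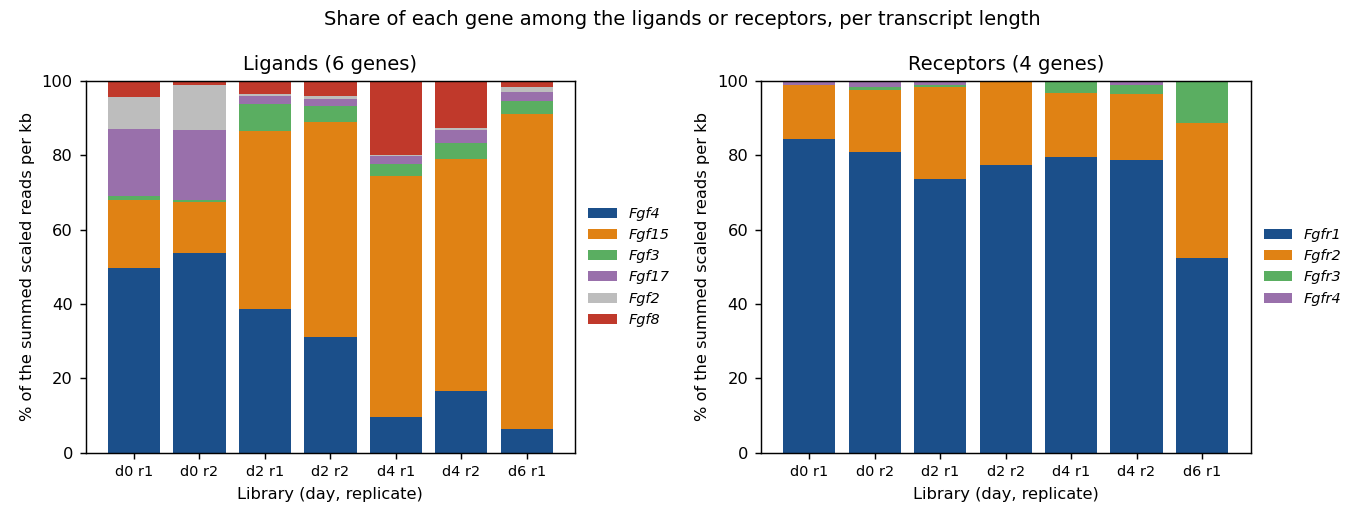
Share of each gene in the summed scaled reads per kb of the 6 ligands (left) and the 4 receptors (right), in percent (vertical axis), for each library (horizontal axis, d for day and r for replicate). Fgf4 fell from 53.7% or less to 6.27% of the ligands as Fgf15 reached 84.8%, and Fgfr1 stayed the largest receptor share, from 84.3% down to 52.5%.

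Of 11 other ligand genes, 10 had a value above 0 and Fgf6 was listed at 0 in every library. Only Fgf7, given above, passed a test between successive days, 1 of 10 between days 0 and 2, against 12.0% of all genes. The F test over all days called 4 of 10, against 28.6% of all genes. These were Fgf7 (adjusted p = 0.00237), Fgf10 (0.0122), Fgf9 (0.0135) and Fgf1 (0.0427). Fgf10, a ligand of Fgfr2, was at 6.24 and 6.00 at day 0, 5.66 and 5.78 at day 2, 4.76 and 4.49 at day 4 and 4.26 at day 6, each day below the one before, with no step past the threshold. Fgf9 was at 0.86 to 1.84 in the 4 early libraries, 3.89 and 3.62 at day 4 and 4.59 at day 6 (day 2 to day 4: 2.29, adjusted p = 0.0664). The 4 FGF homologous factors, which stay inside the cell and bind ion channels, had a median change of 1.41 from day 0 to day 2 with 0 of 4 past the threshold in any of the 3 steps.

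Of 17 genes for co-receptors and proteins that bind the ligands, 2 rose and 5 fell between days 0 and 2 (median -0.19). Of all genes 5.76% were called higher and 6.20% lower at that step. The called genes of this list with the largest changes were Flrt2, which binds FGF receptors (-4.09), and the syndecans Sdc3 (-2.66) and Sdc2 (-2.16), which carry heparan sulfate. Next was Fgfbp3, which binds secreted FGFs (1.64). Fgfbp3 rose at each of the 3 steps: it was at 3.87 and 4.05 at day 0, 5.50 and 5.70 at day 2, 7.26 and 7.26 at day 4 and 9.45 at day 6. Its adjusted p-values were 0.00569, 0.0154 and 0.0188. It was the 1 of 17 that passed between days 2 and 4, where 1.45% of all genes were called higher. Between days 4 and 6 it was joined by Flrt2 (1.98), the glypican Gpc3 (1.45) and Sdc2 (0.96), so that 4 of 17 rose and 0 fell. Of all genes 1.27% were called higher and 3.18% lower at that last step.

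Enzymes that build or trim heparan sulfate changed between days 0 and 2 only in part: 5 of 12 fell and 1 rose. Of all genes 6.20% were called lower and 5.76% higher there. At the later steps 0 of 12 passed, against 3.59% and 4.46% of all genes. The largest falls were those of Hs6st2, a sulfotransferase (-1.50), Ext2, a chain polymerase (-1.07), Sulf2, which removes sulfate (-0.82), and Ext1, the partner of Ext2 (-0.73). The fibroblast markers given above fell over the same interval, and their part in these changes was not tested.

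Of 20 genes of the signalling chain from receptor to ERK, 1 was called at each step, against 12.0%, 3.59% and 4.46% of all genes. Over all days 7 of 20 passed the F test, a share near the 28.6% of all genes. Braf, a kinase above ERK, rose by 0.77 from day 0 to day 2. Gab1, a docking protein, fell by 1.11 from day 2 to day 4, and Mapk3, which encodes ERK1, fell by 1.14 from day 4 to day 6.

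Among 11 genes that FGF and ERK signalling is known to induce, many are inhibitors of the same signal. Between days 0 and 2, 3 of the 11 rose and 2 fell (median -0.02), against 5.76% and 6.20% of all genes. Il17rd, an inhibitor also called Sef, rose by 1.65 and Dusp4, an ERK phosphatase, by 1.03, while the inhibitor Spry4 fell by 1.57 and the transcription factor gene Etv4 by 0.97. Etv5, the partner gene of Etv4, fell by 0.65 between days 2 and 4, 1 of 11, against 2.13% of all genes called lower.

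Between days 4 and 6, when basic FGF had been added, 3 of the 11 fell and 0 rose, with a median of -0.63, where 3.18% of all genes were called lower. Etv5 was at 10.37 and 10.26 at day 4 and 7.62 at day 6 (change -2.70, adjusted p = 0.00367). Etv4 was at 6.19 and 5.87 and then 4.00 (-2.03), and Il17rd at 10.24 and 9.86 and then 8.13 (-1.92). For these genes the day 6 library was lower than the other 6. Stem cell and streak markers were lower there too: the summed naive markers went from 9.07 and 8.78 at day 4 to 7.66 at day 6 with 2 of 6 called lower, Pou5f1 from 10.46 and 10.64 to 7.02, and 1 of 7 streak markers was called lower. Their part in these falls was not tested. The RNA was taken after 48 h in basic FGF, and earlier times were not measured.

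Of 4 genes for proteins that steer the choice between forms of the receptors, Esrp1, which favours the epithelial form of FGFR2, rose by 1.18 between days 0 and 2. It then fell by 1.70 between days 4 and 6, as did Ptbp1, which represses that form, by 1.39. That is 2 of 4 lower at the last step, against 3.18% of all genes. The table holds 1 value per gene, so the receptor forms themselves were not resolved.

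Calls of single pathway genes were open to the choice of libraries. With each of the 6 replicated libraries left out in turn, 9 of the 21 pathway calls between days 0 and 2, 0 of 3 between days 2 and 4 and 4 of 10 between days 4 and 6 passed in at least 1 of the 6 fits. None of these calls passed in all 6 fits, and each kept its direction in every fit. Flrt2 passed in 3 of 6 fits and Sdc2 in 4 of 6 for their falls by day 2, and Etv5 in 2 of 6 for its fall by day 6.

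**Figure D5:**
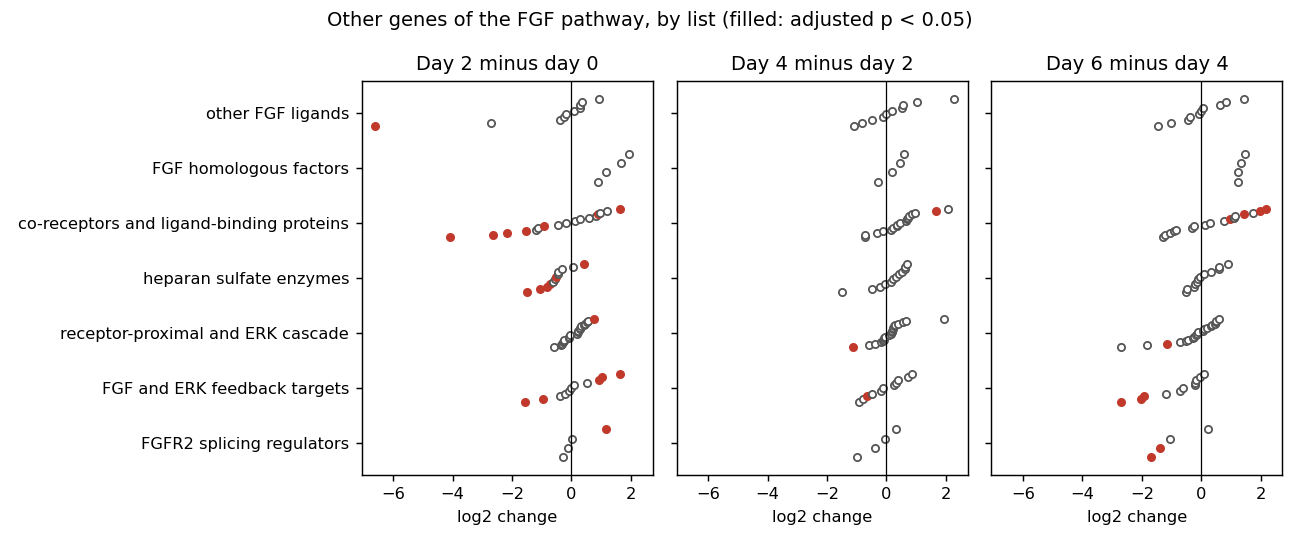
Log2 change between successive days (horizontal axis) of the genes in 7 lists of the FGF pathway, 1 point per gene. Filled red points have an adjusted p under 0.05. Between days 0 and 2 the called heparan sulfate enzymes were 5 lower and 1 higher, against 6.20% and 5.76% of all genes. Between days 4 and 6 the called feedback targets were 3 lower and the called co-receptors 4 higher, against 3.18% and 1.27% of all genes.

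The genes whose levels were most alike to each of the 8 genes past the F test were taken by Pearson's r over the 7 libraries, among 3048 candidate genes. They are descriptions, since the points share libraries and the candidates were many. For Fgf4 they were Trim6 (r = 0.996), Nphs1 (0.992) and Slc7a3 (0.990). Trim6 was at 9.51 and 9.38 at day 0 and 7.44 at day 6, falling after day 2 as Fgf4 did. For Fgf15 they were Gria4 (0.988), Nhsl2 (0.979) and Dscc1 (0.978), and for Fgf3 Rimkla (0.981), Necab3 (0.979) and Cacna1b (0.972).

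For Fgf2 the most alike genes were Man1a (r = 0.9996), Mbnl2 (0.999) and Rnase4 (0.998), each with its highest levels in the day 0 libraries. For Fgf17 they were Serpinb6a (0.994), Smim3 (0.991) and Enpp1 (0.990), and for Fgf8 Clk2 (0.982), Crb3 (0.979) and Myg1 (0.969). For Fgfr3 they were Foxa1 (0.990), Ackr3 (0.988) and Celf2 (0.986). Foxa1, a transcription factor gene of endoderm and floor plate, was at 0 to 2.73 in the 4 early libraries, 5.82 and 5.18 at day 4 and 7.63 at day 6. For Fgfr2 they were Prdm9 (0.982), Sgip1 (0.977) and Sema6d (0.976). Both endoderm and neural markers were higher on days 4 and 6: the summed level of 4 definitive endoderm markers was 4.95 and 5.06 at day 0, 9.01 and 8.85 at day 4 and 8.71 at day 6. Their part in the courses of Fgfr2 and Fgfr3 was not tested. Visceral endoderm markers were low, with 3 of 4 tested, a summed level of 2.90 or less, and all 3 listed at 0 on day 6.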

How the data were processed

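Bulk RNA sequencing of 7 libraries was deposited by the authors as 1 table with a value per gene and library. From the steps between low values, the authors' unit was taken to be the natural log of scaled reads plus 1. Quantile normalization before deposit was read from the columns, which once sorted differ by at most 0.01 in their 9896 highest ranks. The submitters' processing notes name GRCm38. The aligner, the counter, its annotation and its strand setting were not given in the sources used. All 7 value columns were mapped through the labels, 1 of them with a letter O where the label has a zero.

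Values were divided by the natural log of 2. Of 30590 rows, 103 that name no mouse gene and 8674 at 0 in every library were left out. For the remaining 21813, limma 3.58.1 in R 4.3.3 was fitted with 1 mean per day, trended and robust moderation and 3 residual degrees of freedom. The method was tested on simulated data. An exact 0 can be a failed estimate here and is called listed at 0. Promoters and gene positions are from RefSeq (GRCm38.p6) and transcripts from GENCODE.

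All 10 FGF genes are named. From each of 7 pathway lists (79 genes), up to 4 called genes per comparison were named by absolute change, with a mean level of at least 3.46, besides any other FGF ligand, and the 3 most alike genes were taken with a range of at least 2. The FGF genes, the pathway lists and the 6 marker lists were chosen with earlier results of these data known. Alternatives are given in the closing section.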

Additional observations from a re-analysis of the deposited data

How the results depend on the processing

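The counts of called genes moved with the settings. Limma without trend or robust moderation called 1609 genes between days 0 and 2, in place of 2609, 335 between days 2 and 4, in place of 782, and 609 between days 4 and 6, in place of 972. It called 0 of the 10 FGF genes between days 2 and 4 (5 at an unadjusted p under 0.05, as were 19.7% of all genes). With only the 11800 genes of mean level 3.46 or more, 1422 genes and 2 FGF genes were called between days 2 and 4. Between days 4 and 6 that fit called 2200 genes and 2 FGF genes. With 8 added in place of 1, 2 FGF genes were called between days 2 and 4 and 1 between days 4 and 6. Without the day 0 libraries, 0 genes were called between days 2 and 4 (3893 at an unadjusted p under 0.05), with 0 FGF genes, and 7 between days 4 and 6. Centring on the library median changed no count of FGF genes. The split of calls between days 4 and 6 was 278 higher and 694 lower, and became 445 and 545 with 8 added, 362 and 247 without trend, and 95 and 511 with the replicate block. Between days 0 and 2 it was 1257 higher and 1352 lower and became 1672 and 1278 with the level filter.

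Whether replicate numbers pair the libraries was not settled. Over 11800 genes, deviations of same-numbered libraries correlated at -0.0582 (days 0 and 2), -0.0662 (days 0 and 4) and 0.222 (days 2 and 4). With 2 libraries per day these values cannot show whether there was a pairing. The column names also carry a tag that same-numbered libraries share. With the replicate block, 606 genes were called between days 4 and 6, and the FGF genes called were 4, 1 and 0 over the 3 steps, as without it.

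With 1 replicated library left out in turn, the genes called ranged from 0 to 691 between days 0 and 2, were 0 between days 2 and 4, ranged from 0 to 295 between days 4 and 6 and from 0 to 4181 on any day, in place of 6232. The FGF genes called ranged from 0 to 1 between days 0 and 2 and were 0 at both later steps. Such fits have fewer residual degrees of freedom, and a day left with 1 library is assumed to vary like the others. All 5 called FGF changes kept their direction under every setting. Changes that were not called turned sign in 6 cases and became 0 in 1. Over the fits that left out 1 library, the change from day 0 to day 2 ranged from -0.50 to 0.10 for Fgfr1, from -1.71 to 0.17 for Fgfr3 and from -2.59 to 0.14 for Fgfr4, the upper values without day 2 replicate 2. From day 2 to day 4 it ranged from -0.73 to 0.019 for Fgf17, the upper value without day 4 replicate 1. For Fgfr4 it ranged from -1.37 to 1.58 from day 2 to day 4 and was -1.26 without day 2 replicate 2. From day 4 to day 6 it ranged from -2.94 to 0 for Fgfr4, with 0 reached without day 4 replicate 2. The causes were not tested. Depth limits Fgfr4 in all libraries and Fgf3, Fgf2, Fgf8 and Fgfr3 in those where they were low.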
